A study of Mus musculus with 33 samples.

Results

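A set of 9 genes of the epithelial tight junction was followed through RNA-seq of mouse mammary cells, organoids and tumors in which the transcriptional repressor Trps1 was targeted, or in which histone deacetylases were inhibited. They were taken by symbol: the claudins Cldn1, Cldn3, Cldn4 and Cldn7, the tetraspanning proteins occludin (Ocln) and tricellulin (Marveld2), the scaffolds ZO-1 (Tjp1) and ZO-3 (Tjp3), and the junctional adhesion molecule JAM-A (F11r). All 9 genes were found among the 26244 genes of the trichostatin A table, the 24200 of the organoid table and the 26244 of the tumor table, and 8 among the 22867 of the guide RNA table, in which Cldn7 was not analysed here.

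The 33 libraries came from 4 experiments, each with its own deposited table. The mouse mammary epithelial line HC11 received DMSO or, at 300 nM, the histone deacetylase inhibitor trichostatin A (TSA) for 24 h (3 libraries each). The same line carrying 1 guide RNA to Trps1 (sgTrps1) was set beside cells with 1 scrambled guide (sgScr), with 2 libraries each. Primary mammary organoids transduced with AdCre, an adenovirus that delivers Cre, were harvested at day 14 or day 28, with 2 libraries for each genotype and day. The controls were Cdh1F/F;Trps1+/+. They were compared with Cdh1F/F;Trps1F/F and, where 1 Cdh1 allele was not floxed, with Cdh1+/F;Trps1F/F, so every organoid, controls included, carried at least 1 floxed allele of the E-cadherin gene Cdh1. The tumors came from mice in which a WAP-cre transgene, driven by a milk protein promoter of the secretory mammary epithelium, was used to recombine the floxed alleles. Of these, 8 tumors of 6 mice were WAP-cre;Cdh1F/F;Trps1F/F and 3 tumors of 3 mice were WAP-cre;Cdh1F/F;Trps1+/+, so all tumors carried the same Cdh1 alleles. The labels place the 8 tumors in subgroup 1 (4 tumors of 3 mice), in subgroup 2 (2 tumors) and in subgroup 3 (2 tumors). The rule behind the subgroups was not given in the sources used. The labels give no age, and they do not say whether replicate cell and organoid libraries came from separate cultures, so their p-values measure only the spread between these libraries, which may be technical.

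Tight junctions seal the space between neighbouring epithelial cells at the top of their lateral membrane. Claudins form the strands and set which ions pass, occludin lies in the same strands, and tricellulin closes the corners where cells meet. The ZO proteins tie the strands to actin, and JAM-A is an immunoglobulin-like adhesion protein that helps to place the junction. In the mammary gland these junctions close around the alveolar lumen when milk secretion starts, and Cldn3, Cldn4 and Cldn7 are among the main claudins of its epithelium. TRPS1 is a nuclear protein with a GATA-type zinc finger that binds GATA sequences and represses transcription.

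Upstream sequences of 4 genes are printed because they gave the largest differences in HC11 cells (Cldn4, Ocln and Tjp3) or lie beside one that did (Cldn3). That of Cldn7, which had the largest log2 fold change in subgroup 1 tumors (7.86), is not printed. Each is the stretch of 250 bases before the annotated start, from RefSeq on GRCm38.p6, 5′ to 3′ on the gene's own strand. Capitals mark matches, on either strand, to a GATA word or to the E-box word CACCTG, which SNAI and ZEB repressors are known to bind. The GATA words searched were AGATAA, its form AGATAG, the form TGATAA and lastly the form TGATAG, which share no letters with the E-box word where they match.
Cldn4: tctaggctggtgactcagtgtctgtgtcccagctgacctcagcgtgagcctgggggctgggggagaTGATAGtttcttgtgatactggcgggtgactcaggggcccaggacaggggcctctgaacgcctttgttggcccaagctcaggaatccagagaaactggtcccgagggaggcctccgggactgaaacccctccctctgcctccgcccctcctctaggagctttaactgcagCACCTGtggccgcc
Cldn3: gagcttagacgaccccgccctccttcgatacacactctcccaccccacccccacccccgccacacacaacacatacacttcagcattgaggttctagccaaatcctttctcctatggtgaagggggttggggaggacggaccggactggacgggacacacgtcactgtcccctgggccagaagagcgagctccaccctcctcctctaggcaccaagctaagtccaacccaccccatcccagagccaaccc
Ocln: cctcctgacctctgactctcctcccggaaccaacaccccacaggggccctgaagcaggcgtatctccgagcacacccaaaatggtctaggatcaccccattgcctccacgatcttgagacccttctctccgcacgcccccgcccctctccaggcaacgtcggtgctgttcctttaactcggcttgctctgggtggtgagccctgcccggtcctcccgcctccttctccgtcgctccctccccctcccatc
Tjp3: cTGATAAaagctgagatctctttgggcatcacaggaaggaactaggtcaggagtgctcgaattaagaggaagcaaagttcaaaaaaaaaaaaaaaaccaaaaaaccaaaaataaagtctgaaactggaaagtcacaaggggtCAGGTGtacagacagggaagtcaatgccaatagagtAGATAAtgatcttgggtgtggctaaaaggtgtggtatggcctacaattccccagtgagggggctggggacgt
The Cldn4 stretch lies at chr5:134946935-134947184 (minus strand), that of Cldn3 at chr5:134985964-134986213 (plus strand), that of Ocln at chr13:100552719-100552968 (minus strand) and that of Tjp3 at chr10:81291582-81291831 (minus strand). Cldn4 has 1 GATA word, which begins 184 bases before the start, and 1 E-box word, which begins 14 bases before it. Tjp3 has 2 GATA words, which begin at 249 and 72 bases, and 1 E-box word between them. Neither motif is in the printed stretches of Cldn3 and Ocln. The table also holds a second promoter of Ocln (chr13:100552499-100552748, minus strand) with 2 E-box words, which begin 213 and 68 bases before that start, and a second promoter of Tjp3 with 1 E-box word at 17 bases. Of the genes not printed, Cldn1 and Tjp1 each have 1 GATA word in the first promoter, and F11r has 1 E-box word there. A second promoter of Cldn7 has 2 E-box words, and Marveld2 has neither motif. A GATA word is in 26.5% of the 32851 RefSeq promoter windows of this length, and CACCTG is in 17.2%. The grainyhead-like word AACCGGTT, in 0.116% of windows, is in none of the first promoters of the 9 genes. All 9 genes matched the promoter table, and these matches are letters in a window, not binding data.

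In GRCm38, Cldn4 (chromosome 5, 134945119 to 134946934) and Cldn3 (134986214 to 134987472) are genes of 1 exon that lie 39.3 kb apart on opposite strands. Ocln (chromosome 13, 100496507 to 100552718) and Marveld2 (100595957 to 100616971) lie 43.2 kb apart on the same strand. Tjp3 spans bases 81273207 to 81291581 of chromosome 10 and overlaps the end of Apba3 on the other strand, as Cldn3 does with the antisense gene Wbscr25. The library kit's strandedness is not stated, so reads in those overlaps could belong to either gene. Apba3 itself did not pass the test with TSA (log2 fold change -0.13), in Cdh1F/F;Trps1F/F organoids at day 14 (0.04) or in subgroup 1 tumors (-0.06). It was higher with the guide (0.46, limma, adjusted p = 9.37e-05) and lower in Cdh1F/F;Trps1F/F organoids at day 28 (-0.71, adjusted p = 0.00119).

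Values are log2(normalized count + 1), and a difference of 1 on this scale is a doubling. Libraries held 14858175 to 38773073 reads. In the organoids, Trps1 mRNA, the targeted transcript, averaged 13.55 (day 14) and 13.79 (day 28) in Cdh1F/F;Trps1+/+, 11.33 and 11.14 in Cdh1F/F;Trps1F/F, and 9.74 and 9.75 in Cdh1+/F;Trps1F/F. It fell with TSA by 3.05 ± 0.0383 (SE, adjusted p = 6.84e-14) but not with the guide (0.04, adjusted p = 0.676), so transcript level does not check that label. Cdh1 reads were counted in every organoid library (13.04 to 13.94) and do not show whether the floxed part was lost. In the tumors Trps1 mRNA was 1.26 lower in Trps1F/F, with an adjusted p of 0.8. Markers of the epithelium were present in HC11 cells (Cdh1 13.18 to 13.77, Epcam 10.20 to 12.99, Krt14 13.15 to 15.76). Krt18 differed between the 2 HC11 experiments. It stood at 6.72 to 7.08 with DMSO and 8.66 to 8.75 with TSA, but at 0 in both sgScr libraries and at most 0.61 in sgTrps1.

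With TSA, Cldn4 and Tjp3 rose from few reads to many, Ocln and Cldn1 rose by less, and Cldn3 fell. Among the claudins, Cldn4, a strand protein that limits sodium passage, stood at 5.32, 4.48 and 5.23 in the 3 DMSO libraries (38, 19 and 35 reads). In the TSA libraries it stood at 10.52, 10.55 and 10.62 (1343, 1988 and 1589 reads). The groups were far apart, with a log2 fold change of 5.56 ± 0.18 (SE, n = 3 and 3; limma, adjusted p = 5.68e-11), or 47.0-fold. Its neighbour Cldn3, a sealing claudin, went the other way. Cldn3 stood at 9.02, 9.49 and 9.59 with DMSO and at 8.11, 8.34 and 8.34 with TSA. It fell by 1.11 on the log2 scale (SE 0.128, adjusted p = 5.5e-06), with no overlap, as for 86.2% of all tested genes. Cldn1, a claudin widespread in barrier epithelia, stood at 6.96, 7.08 and 7.11 with DMSO and rose to 7.90, 7.89 and 7.86 (0.83 ± 0.0937, adjusted p = 4.5e-06). Cldn7, a claudin of the basolateral membrane as well as the junction, had 2 reads in 1 DMSO library and none in the other 5 libraries, and was too low to test.

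Ocln stood at 5.28, 4.55 and 4.64 with DMSO and at 6.89, 6.99 and 7.15 with TSA. The increase was 2.19 ± 0.202 (adjusted p = 6.9e-07). The tricellulin gene Marveld2 did not follow its relative: it stood between 8.10 and 8.32 with DMSO and between 7.82 and 7.94 with TSA, and fell by 0.33 (adjusted p = 0.00344). The scaffold genes parted in the same way. Tjp3 stood at 2.02, 2.12 and 1.63 with DMSO, on 3, 3 and 2 reads, and at 7.51, 7.62 and 7.76 with TSA, on 166, 260 and 219 reads. From the summed reads the ratio was 70.1, with a 95% counting interval of 35.4 to 163 (limma, adjusted p = 1.93e-10 for the log2 values). Tjp1 lay between 12.43 and 12.52 with DMSO and between 12.32 and 12.34 with TSA. It fell by 0.13 as deposited (adjusted p = 0.00751) but was at 0.02 (adjusted p = 0.564) after quantile normalization. F11r stood between 11.55 and 11.68 with DMSO and rose by 0.14 to between 11.72 and 11.78 (adjusted p = 0.00894).

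All 8 genes that could be tested passed, 5 higher and 3 lower, in a comparison in which 85.2% of all tested genes passed (43.6% higher and 41.6% lower), so passing says little here and the sizes carry the description. The median of the 8 was 0.48, beside 0.02 for all genes. In RPKM (reads per kilobase of exon, scaled to the library's reads), in which genes can be compared, Cldn4 went from 0.866 to 42.8 and Cldn3 from 25.9 to 12.5 (means). Cldn4 thereby passed from sixth place among the 9 genes to second, after F11r (57.8 with DMSO and 66.8 with TSA). The closest neighbour of Cldn4, Mettl27, whose end lies 2.48 kb away, was higher with TSA by 2.37 (adjusted p = 1.1e-10).

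In HC11 cells with the Trps1 guide, transcripts of the membrane proteins Cldn1 and Ocln rose from a few reads, and Cldn3, Cldn4, Marveld2 and Tjp3 rose as well. Cldn4 stood at 9.49 and 9.26 in the sgScr libraries and at 11.46 and 11.42 in the sgTrps1 libraries, a rise of 2.06 ± 0.0724 (SE, n = 2 and 2; limma, adjusted p = 3.41e-11). Cldn3 stood at 9.12 and 8.99 and rose to 10.28 and 10.08 (1.12 ± 0.0781, adjusted p = 2.91e-08). Both claudins of the chromosome 5 pair were thus higher with the guide, whereas with TSA Cldn4 rose and Cldn3 fell. Cldn1 stood at 3.04 and 3.47 with sgScr (11 reads each) and at 5.83 and 5.98 with sgTrps1 (106 and 120 reads). The read ratio was 7.01 (95% counting interval 4.52 to 11.4; limma, adjusted p = 5.12e-07).

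Ocln stood at 1.57 and 3.21 with sgScr, on 3 and 9 reads, and at 7.11 and 7.03 with sgTrps1, on 260 and 250 reads. Its read ratio was 29, with an interval of 16.5 to 56.5 (limma, adjusted p = 1.61e-07). This was the largest change of the 8 genes in this experiment. Marveld2 stood at 7.16 and 7.24 and rose to 8.29 and 8.24 (1.06 ± 0.0977, adjusted p = 4.54e-07). Tjp3 stayed at low levels: 2.10 and 1.50 with sgScr (5 and 2 reads), 4.03 and 3.44 with sgTrps1 (29 and 19 reads), a read ratio of 4.68 (2.11 to 12.3; adjusted p = 0.00134). Without sgTrps1 replicate 1 the Tjp3 difference was 1.64 and no longer passed (adjusted p = 0.0596). Tjp1 stood at 13.10 and 13.15 with sgScr and at 12.99 and 13.09 with sgTrps1, and F11r at 11.71 and 11.64 and at 11.77 and 11.80. Neither passed (adjusted p = 0.286 and 0.102), although their groups did not overlap, as for 83.5% of all tested genes.

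Of the 8 genes, 6 passed, all higher, while 67.1% of all tested genes passed (34.6% higher and 32.4% lower). The median was 1.53, beside 0.02 for all genes. Whole chromosomes moved with 2 of these genes. Genes of chromosome 10, which holds Tjp3, had a median of 0.42 with 80.3% above 0, and those of chromosome 16, which holds Cldn1, had a median of 0.32 with 72.7% above 0. The medians of chromosomes 5 and 13, which hold the Cldn3 and Cldn4 pair and the Ocln and Marveld2 pair, were -0.02 and 0.06. The part of these chromosome-wide shifts in the Tjp3 and Cldn1 differences was not tested. Of 5 basal markers tested with the guide, 3 were higher (Krt5 by 2.68, Myh11 by 1.60 and Krt14 by 1.32), Trp63 was lower (-0.64) and Oxtr did not pass. Of 4 luminal markers, Prlr (-1.41), Epcam (-1.40) and Krt8 (-0.51) were lower and Esr1 was higher (0.69).

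**Figure D1:**
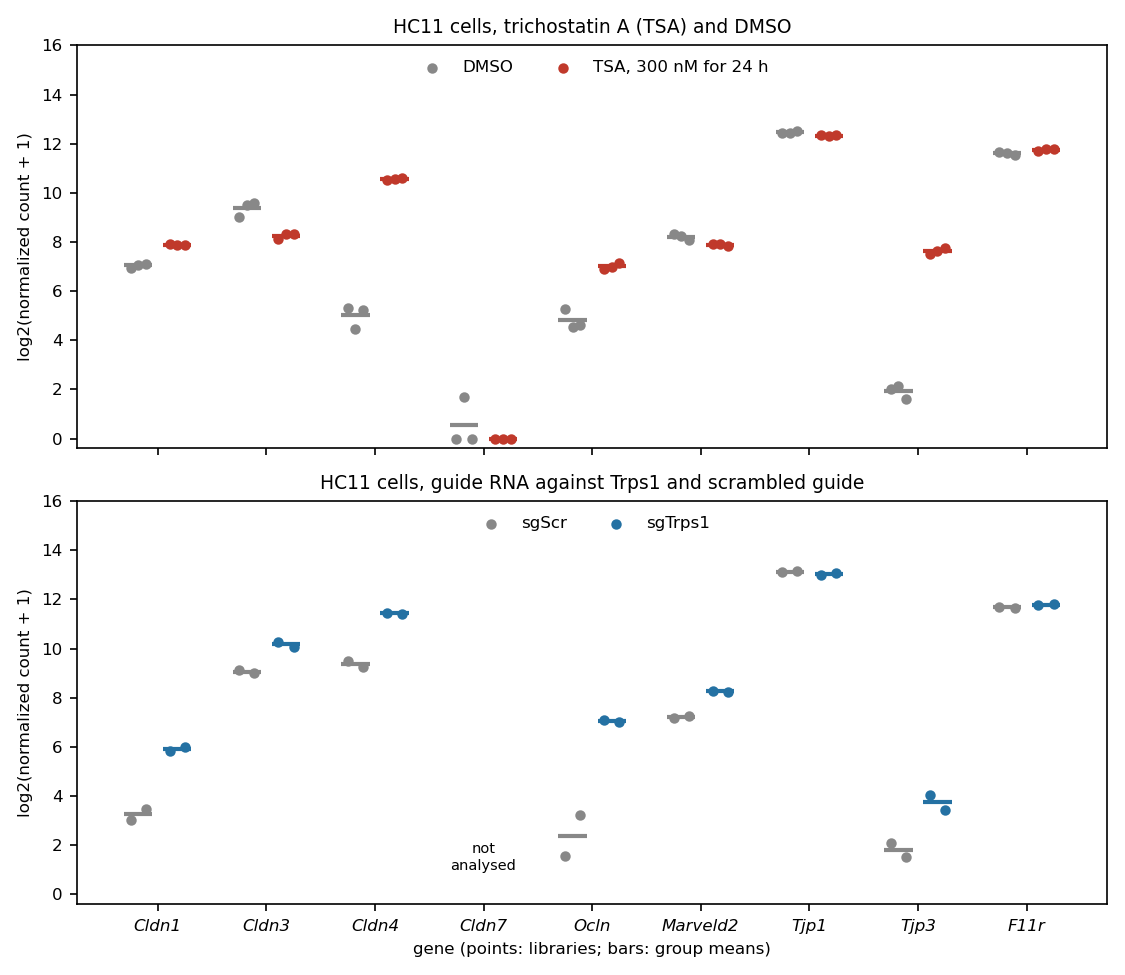
The 9 tight junction genes in HC11 cells, as log2(normalized count + 1) on the vertical axis, with 1 point per library and a bar at each group mean. Cldn4 and Tjp3 lie near 5 and 2 with DMSO and above 10 and 7 with TSA (upper panel), and Cldn1 and Ocln lie below 4 with sgScr and above 5 and 7 with sgTrps1 (lower panel).

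In the organoids, Cdh1F/F;Trps1F/F had higher levels of most of these genes than Cdh1F/F;Trps1+/+ as deposited. Relative to the epithelial genes Krt8, Krt18 and Epcam, luminal markers that were themselves higher there, only Cldn4 was also higher. At day 14, Cldn4 stood at 9.76 and 9.94 in the Trps1+/+ libraries and at 12.94 and 12.93 in the Cdh1F/F;Trps1F/F libraries. It rose by 3.08 ± 0.103 (SE, n = 2 and 2; limma, adjusted p = 1.07e-09), or 8.48-fold. At day 28 it stood at 10.54 and 10.71 against 12.82 and 12.79, a rise of 2.18 ± 0.103 (adjusted p = 1.93e-08). The groups were well apart on both days, and the Trps1+/+ libraries stood higher at day 28.

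Cldn3 stood at 10.91 and 11.41 in Trps1+/+ and at 12.29 and 12.14 in Cdh1F/F;Trps1F/F at day 14 (1.05 ± 0.128, adjusted p = 4.36e-05). At day 28 it stood at 11.47 and 11.49 against 11.70 and 11.57, which did not pass (0.15, adjusted p = 0.358). Cldn7 stood at 10.90 and 11.22 against 11.90 and 11.85 at day 14, and at 11.23 and 11.11 against 11.75 and 11.72 at day 28. It rose at both days, by 0.82 (adjusted p = 3.47e-05) and 0.57 (adjusted p = 0.000409). Cldn1 was the only claudin whose difference was larger at day 28, although that change over time did not pass (0.42, adjusted p = 0.184, but 0.70 and 0.0177 without Trps1+/+ day 28 replicate a). It stood at 10.25 and 10.31 against 10.78 and 10.94 at day 14 (0.58 ± 0.151, adjusted p = 0.0102), and at 9.55 and 9.01 against 10.44 and 10.13 at day 28 (1.00 ± 0.151, adjusted p = 0.000167). The day 14 call for Cldn1 was lost without Trps1+/+ replicate a (adjusted p = 0.0684) or without Cdh1F/F;Trps1F/F replicate 2 (adjusted p = 0.0899).

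Ocln stood at 9.33 and 9.29 in Trps1+/+ and at 10.40 and 10.23 in Cdh1F/F;Trps1F/F at day 14, and at 9.66 and 9.49 against 10.31 and 10.40 at day 28. It rose by 1.01 ± 0.107 (adjusted p = 1.54e-05) and by 0.78 ± 0.107 (adjusted p = 8.1e-05). Marveld2, its chromosomal neighbour, was very even within groups: 9.51 and 9.59 against 10.47 and 10.43 at day 14, and 9.92 and 9.79 against 10.45 and 10.47 at day 28. It rose by 0.90 (adjusted p = 3.9e-06) and 0.60 (adjusted p = 6.17e-05).

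The scaffold gene Tjp3 stood at 10.19 and 10.49 in Trps1+/+ and at 10.97 and 10.81 in Cdh1F/F;Trps1F/F at day 14, a rise of 0.55 (adjusted p = 0.00128). By day 28 the groups overlapped, at 10.70 and 10.68 against 10.76 and 10.56 (-0.03, adjusted p = 0.835). Tjp1 ranged from 11.85 to 12.04 over these 8 libraries and passed at neither day (adjusted p = 0.485 and 0.686). F11r stood at 11.94 and 12.06 against 12.39 and 12.41 at day 14 and rose by 0.39 (adjusted p = 0.00133). At day 28 it reached 12.09 in Trps1+/+ and stood at 12.25 and 12.20 in Cdh1F/F;Trps1F/F, and the difference of 0.18 did not pass (adjusted p = 0.0759).

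Of the 9 genes, 8 passed at day 14, all higher (32.5% of all genes passed, 14.5% higher and 17.9% lower), and 5 passed at day 28, all higher (43.2% passed, 19.9% higher and 23.4% lower). The medians of the 9 were 0.82 and 0.57, beside -0.01 and -0.04 for all genes. The groups did not overlap for 9 and 7 of the 9 genes, and for 69.9% and 70.9% of all genes. The authors' deposited table of their own comparisons lists 8 and 5 of the 9 as higher at an adjusted p under 0.05.

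**Figure D2:**
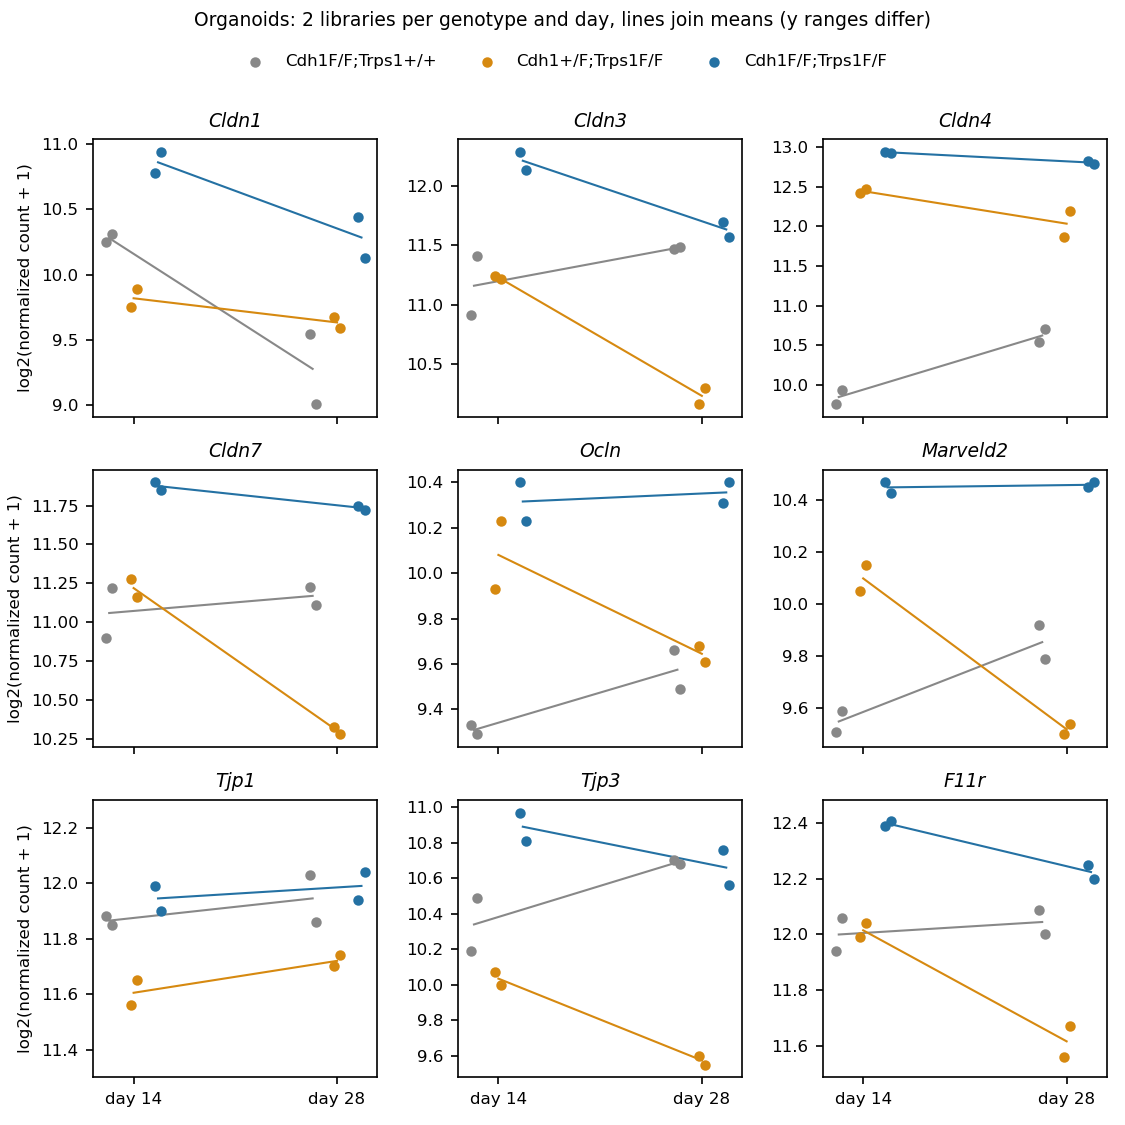
The 9 genes in the organoids, as log2(normalized count + 1) at day 14 and day 28, with 1 point per library and lines that join the means of each genotype; the vertical ranges differ between panels. As deposited, Cdh1F/F;Trps1F/F is highest in most panels (relative to Krt8, Krt18 and Epcam most of its differences from Trps1+/+ other than that of Cldn4 are near or below 0), Cldn4 is lowest in Trps1+/+ at both days, and Cdh1+/F;Trps1F/F falls between the days in Cldn3, Cldn7 and Tjp3.

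The composition of the organoids differed between genotypes in the same libraries. The summed normalized counts of 8 fibroblast markers (all 8 detected in each group) were 89117 to 96596 in Trps1+/+ and 21074 to 21660 in Cdh1F/F;Trps1F/F at day 14, and 25352 to 38739 and 8099 to 9252 at day 28. In Cdh1+/F;Trps1F/F they were 650042 to 737264 and 353865 to 423260. The sums of 9 luminal markers were 53671 to 63467 in Trps1+/+ and 82143 to 84528 in Cdh1F/F;Trps1F/F over both days, but the list did not move one way. At each day 3 of the 9 were higher, the same Krt8, Krt18 and Epcam, and 3 were lower, among them Foxa1 (-2.30 and -1.93) and Prlr (-0.60 and -0.45). In such bulk samples, more cells of a type and more RNA per cell cannot be told apart. The part of cell composition in the differences of the tight junction genes was not tested, but the values were also expressed relative to the mean of Krt8, Krt18 and Epcam, the 3 luminal markers that rose.

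Relative to Krt8, Krt18 and Epcam, which were themselves 0.75 to 1.00 higher in Cdh1F/F;Trps1F/F at day 14, the median of all genes shifted to -0.92 at both days. Cldn4 remained higher, by 2.18 at day 14 and 1.29 at day 28, and was the only one of the 9 genes that passed as higher on that scale at either day. At day 14 Cldn3, Ocln and Marveld2 were at 0.15, 0.10 and -0.00, Cldn1 and Cldn7 turned to -0.32 and -0.09, and none of these 5 passed. Tjp1 (-0.82), F11r (-0.51) and Tjp3 (-0.35) were lower. At day 28, 6 genes were lower on that scale, among them Cldn3 (-0.73) and Tjp3 (-0.92), and Cldn1 and Ocln stood at 0.12 and -0.11 and did not pass. With the median of all genes at -0.92, lower here means lower relative to Krt8, Krt18 and Epcam, not lower than a typical gene. The share of all genes that passed on that scale is not given. The higher levels of Cldn1, Cldn3, Cldn7, Ocln, Marveld2, Tjp3 and F11r in Cdh1F/F;Trps1F/F organoids thus passed as deposited and not on the relative scale, and that of Cldn4 passed on both.

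The Cdh1+/F;Trps1F/F organoids, compared with the same Cdh1F/F;Trps1+/+ libraries and so sharing them as controls, also had more Cldn4. This comparison changes the Cdh1 and the Trps1 genotype together, so their parts cannot be told apart in it. Cldn4 stood at 12.42 and 12.47 at day 14 and at 11.87 and 12.20 at day 28, above Trps1+/+ by 2.60 ± 0.103 (adjusted p = 2.59e-09) and 1.41 ± 0.103 (adjusted p = 1.8e-07). Relative to the 3 epithelial genes the differences were 2.26 and 2.15. Ocln stood at 9.93 and 10.23 at day 14 and rose by 0.77 (adjusted p = 0.000109). At day 28 it stood at 9.68 and 9.61, overlapping with Trps1+/+ (0.07, adjusted p = 0.606). Marveld2 changed from higher at day 14 (10.05 and 10.15, a rise of 0.55, adjusted p = 0.000154) to lower at day 28 (9.50 and 9.54, a fall of 0.34, adjusted p = 0.00313), and at day 28 it turned to 0.40 on the relative scale.

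Cldn3 in Cdh1+/F;Trps1F/F stood at 11.24 and 11.22 at day 14, level with Trps1+/+ (0.06, adjusted p = 0.732), and at 10.16 and 10.30 at day 28, where it fell by 1.25 (adjusted p = 3.61e-06). Cldn7 went with it, from 11.28 and 11.16 (0.16, adjusted p = 0.218) to 10.33 and 10.28 (-0.86, adjusted p = 8.32e-06). Tjp3 averaged 10.03 at day 14 (-0.30, adjusted p = 0.0367) and stood at 9.60 and 9.55 at day 28 (-1.12, adjusted p = 1.59e-06). These 3 genes had the lowest values of all organoids in the day 28 libraries of this genotype. In all, 3 genes were higher and 3 lower at day 14 (36.3% of all genes passed, 18.9% higher and 17.4% lower) and 1 was higher and 6 lower at day 28 (53.3% passed, 28.7% higher and 24.6% lower). The 3 lower calls at day 14 (Cldn1, Tjp1 and Tjp3) were all lost without Cdh1+/F;Trps1F/F replicate a (-0.39, -0.21 and -0.34). Other single libraries mattered too: the Cldn1 call was lost without any single library of the comparison. The Tjp1 call was lost without either Trps1+/+ replicate, and that of Tjp3 without replicate b of either genotype. With no filter, Cldn1 and Tjp3 did not pass (limma, adjusted p = 0.0545 and 0.0571). At day 28, Krt8 was 1.31 lower than in Trps1+/+, the median of all genes moved to 0.77 relative to the 3 epithelial genes, and on that scale Marveld2, Tjp1 and F11r turned to higher (0.40, 0.51 and 0.31).

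With the floxed Trps1 alleles shared, Cdh1F/F;Trps1F/F had higher levels than Cdh1+/F;Trps1F/F of 8 of the 9 genes at day 14 (40.6% of all genes passed, 19% higher and 21.6% lower) and of all 9 at day 28 (56.7% passed, 27.7% higher and 29% lower) as deposited, but of only 2 and 0 relative to Krt8, Krt18 and Epcam. The median differences were 0.49 and 0.77. At day 28 the largest were those of Cldn7 (1.43 ± 0.0962), Cldn3 (1.41 ± 0.128) and Tjp3 (1.09 ± 0.104), each with an adjusted p of 1.32e-06 or less. On the relative scale 2 genes remained higher at day 14 (Cldn1 0.47 and Cldn3 0.42), 5 turned to between -0.33 (Ocln) and -0.08 (Cldn4), and all 9 turned below 0 at day 28, from -0.20 for Cldn7 to -1.36 for Tjp1, and 7 of them passed. That scale moved every gene by the same amount (Cldn4 from 0.77 to -0.86 at day 28), and the median of all genes as deposited was 0.02 there. A value below 0 thus means lower relative to Krt8, Krt18 and Epcam, not lower than a typical gene. The share of all genes that passed on that scale is not given. Trps1 mRNA differed too between these genotypes, by 1.58 at day 14 and 1.40 at day 28, so the Cdh1 genotype and the remaining Trps1 transcript cannot be told apart here.

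**Figure D3:**
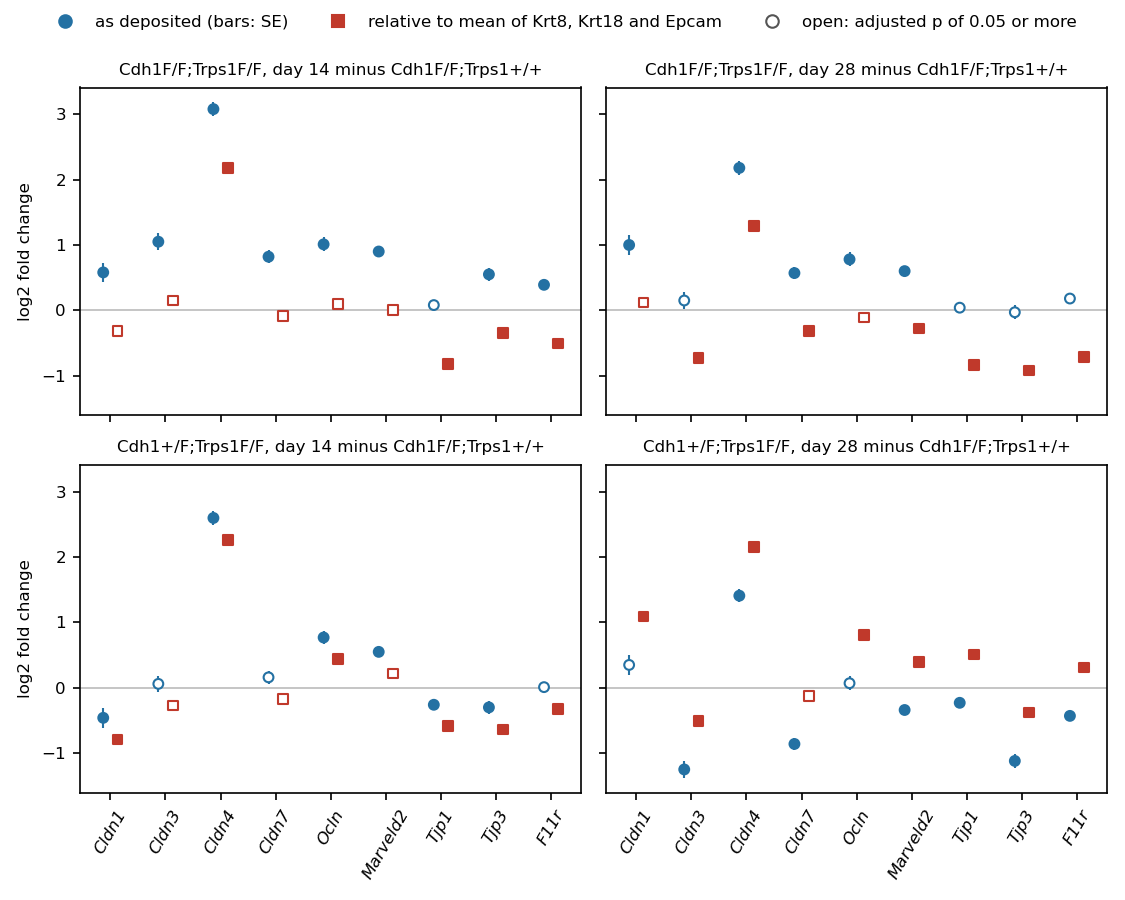
Log2 fold changes of the 9 genes against Cdh1F/F;Trps1+/+ on the vertical axis for 2 genotypes (rows) and 2 days (columns), as deposited (circles, bars show the SE) and relative to the mean of Krt8, Krt18 and Epcam (squares); open symbols have an adjusted p of 0.05 or more. Cldn4 is above 1 in every panel on both scales, and for Cdh1F/F;Trps1F/F the other 8 genes lie between -0.92 and 0.15 on the relative scale.

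The Trps1 difference of Cldn3, Cldn4 and Tjp3 changed between the days. In the Cdh1F/F genotypes the difference at day 28 was smaller than that at day 14 by 0.90 ± 0.181 for Cldn3 (limma interaction, adjusted p = 0.00621), by 0.91 ± 0.146 for Cldn4 (adjusted p = 0.00201) and by 0.58 ± 0.147 for Tjp3 (adjusted p = 0.0181). These 3 of 9, all smaller, stand beside 17.9% of all genes (8.23% larger and 9.71% smaller). The Tjp3 call was lost relative to the 3 epithelial genes (-0.57, adjusted p = 0.0542) and without 1 of 3 libraries: Trps1+/+ day 14 replicate a (-0.43), Cdh1F/F;Trps1F/F day 14 replicate 1 (-0.50) or day 28 replicate 2 (-0.49). Within genotypes, Cldn1 fell between day 14 and day 28 in Trps1+/+ by 1.00 (adjusted p = 0.000412) and in Cdh1F/F;Trps1F/F by 0.58 (adjusted p = 0.0111). In Trps1+/+, Cldn4 rose by 0.77 (adjusted p = 0.00016), Tjp3 by 0.35 (adjusted p = 0.0248) and Marveld2 by 0.31 (adjusted p = 0.0139), so 4 of 9 genes changed (25.9% of all genes, 11.1% higher and 14.8% lower). Fitted on these 4 libraries alone, Marveld2 and Tjp3 no longer passed (adjusted p = 0.076 and 0.0845), nor did either without Trps1+/+ day 14 replicate a (0.094 and 0.244) or day 28 replicate a (0.121 and 0.0944), nor Tjp3 without day 28 replicate b (0.0779). In Cdh1F/F;Trps1F/F, Cldn3 fell by 0.58 (adjusted p = 0.00425), and the 2 genes Cldn1 and Cldn3 were those that changed (35.4% of all genes, 14.8% higher and 20.6% lower). Without day 14 replicate 1 the Cldn3 call was lost (adjusted p = 0.052), and without day 14 replicate 2 or day 28 replicate 2 that of Cldn1 (0.0891 and 0.109). In Cdh1+/F;Trps1F/F, 7 genes fell (40.8% of all genes, 20.5% higher and 20.2% lower), most of all Cldn3 by 1.00 and Cldn7 by 0.92, and all 7 turned to between 0.06 and 0.67 relative to the 3 epithelial genes, where the median of all genes moved to 1.10. Of these 7, Ocln lost its call without day 14 replicate b (adjusted p = 0.0819) or day 28 replicate b (0.0521), and Cldn4 without day 28 replicate a (0.0881).

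In the tumors, most of the 9 genes were highest in the labelled subgroup 1 and low in the other Trps1F/F tumors. Cldn4 stood at 12.34, 13.22, 12.18 and 11.57 in the 4 subgroup 1 tumors (17LCO103, 18LCO003 and tumors 1 and 2 of 18LCO025). In the other 4 Trps1F/F tumors it stood at 5.45 and 1.57 (subgroup 2) and at 0.00 and 2.78 (subgroup 3), where 0 reads in tumor 3 of 18LCO025 allow up to 3 counts, or 3.15 normalized counts. The Trps1+/+ tumors ranged from 9.55 in 18LCO046 through 3.42 in 18LCO114 to 1.06 in 18LCO128. Subgroup 1 lay above every other tumor, and 18LCO046 stood apart from the other two of its group. Against Trps1+/+, with mice as replicates (3 and 3), subgroup 1 was higher by 7.80 ± 2.01 (limma, adjusted p = 0.0344). The rule behind the subgroups is not known here. If they were drawn from these same expression values, the p-values for a subgroup describe its separation and do not test it.

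Cldn3 and Cldn7 had the same layout. Cldn3 ranged from 10.63 to 11.72 in subgroup 1 and stood at 9.49, 6.26 and 0.00 in the Trps1+/+ tumors (0 reads in 18LCO128, up to 3.26 normalized counts), and at 1.57 to 5.32 in the other Trps1F/F tumors. The difference of 6.10 did not pass (adjusted p = 0.0759), although the groups did not overlap, as for 43.3% of all tested genes. That difference passed without 18LCO046 (8.22, adjusted p = 0.0193). Cldn7 ranged from 11.40 to 11.95 in subgroup 1 and stood at 8.18, 1.56 and 1.66 in Trps1+/+ (7.86 ± 1.82, adjusted p = 0.0231). Cldn1, in contrast, ranged from 7.08 to 10.53 in subgroup 1, stood at 9.81, 10.47 and 6.46 in Trps1+/+, and reached its highest value, 12.05, in tumor 3 of 18LCO025 (0.02, adjusted p = 0.994 for subgroup 1).

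Ocln ranged from 10.34 to 10.96 in subgroup 1 and stood at 8.18, 1.97 and 1.66 in Trps1+/+, and at 0.00 to 2.13 in the other Trps1F/F tumors (6.69 ± 1.51, adjusted p = 0.0214). Marveld2 ranged from 9.97 to 10.52 in subgroup 1 against 7.09, 4.21 and 3.43 (5.26 ± 0.899, adjusted p = 0.00774). Tjp3 ranged from 9.36 to 10.31 against 5.89, 4.54 and 4.43 (4.87 ± 0.664, adjusted p = 0.00336). Tjp3 thus separated subgroup 1 from all 7 other tumors, whose highest value was 5.89. Tjp1 was nearly flat, from 11.61 to 12.62 over all 11 tumors (0.21 for subgroup 1, adjusted p = 0.605), and F11r ranged from 11.74 to 12.82 in subgroup 1 and from 9.14 to 11.79 elsewhere (2.01, adjusted p = 0.122).

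Of the 9 genes, 5 passed in subgroup 1, all higher (15.6% of all genes passed, 8.91% higher and 6.66% lower), with a median of 5.26 beside 0.01 for all genes. Cldn4, Cldn7 and Ocln rested on few mice. Their calls were lost without 17LCO103, 18LCO003, 18LCO114 or 18LCO128, with adjusted p from 0.0566 to 0.115, while Marveld2 and Tjp3 passed each time. The tumors of mouse 18LCO025 were left out singly and never together, so dependence on that mouse was not tested. Relative to Krt8, Krt18 and Epcam the median of all genes moved to -3.49, Cldn7, Cldn4 and Ocln stayed higher (4.36, 4.30 and 3.18), Marveld2 and Tjp3 were at 1.76 and 1.37 and no longer passed, and Cldn1 and Tjp1 turned to -3.48 and -3.30. Epcam stood at 14.31 to 14.76 in subgroup 1, at 11.31 in 18LCO046 and at 4.42 to 6.44 in the other 6 tumors. The summed luminal markers (9 of 9 detected) were 62467 to 107872 in subgroup 1 and 2377 to 29223 elsewhere, and the summed myeloid markers were 12175 to 23851 and 29328 to 145759. Against Trps1+/+, 4 of 9 luminal markers were higher and none lower, and 3 of 6 myeloid markers were lower and none higher. The part of this in the result was not tested.

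Across all 8 Trps1F/F tumors, averaged over 6 mice, none of the 9 genes passed against Trps1+/+ (limma, 0 of 15433 genes; at an unadjusted p under 0.05, 806 genes and 0 of the 9). In subgroup 2 no gene passed (2104 unadjusted, 0 of the 9), and in subgroup 3 1 gene, none of the 9, passed (0.0063% of all genes; 958 unadjusted, 0 of the 9). All tumor comparisons share the 3 Trps1+/+ tumors. The authors' deposited table lists 6 of the 9 as higher in subgroup 1, F11r among them (adjusted p = 0.0439), and Ocln as lower in subgroups 2 and 3 (log2 fold changes -5.21 and -7.61). Here Ocln stood at -2.09 and -3.45 and did not pass. The sizes in subgroup 1 differed too, with 4.47 in the authors' table beside 7.80 here for Cldn4. They were 5.07 beside 7.86 for Cldn7 and 4.01 beside 6.69 for Ocln, but 4.79 beside 4.87 for Tjp3. Within mouse 18LCO025, tumors 1 and 2 had Cldn4 at 12.18 and 11.57 and Ocln at 10.72 and 10.42, while tumor 3 had no read of either.

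**Figure D4:**
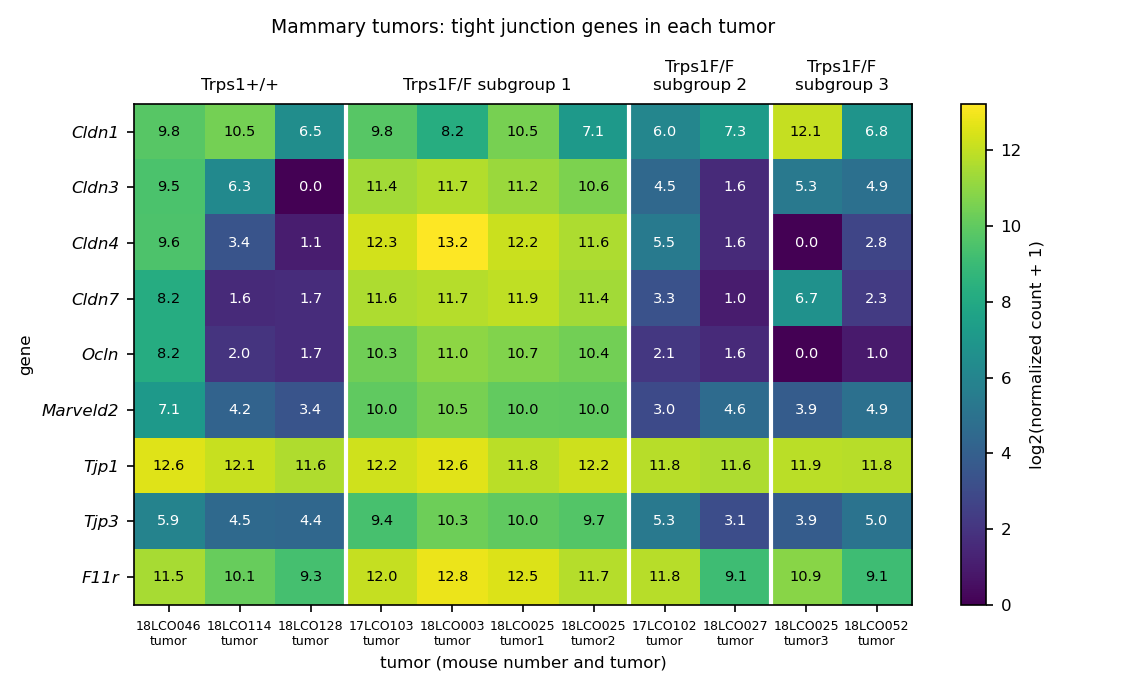
The 9 genes (rows) in the 11 tumors (columns, by genotype and labelled subgroup), coloured and numbered by log2(normalized count + 1). The 4 subgroup 1 tumors are above 9 for all genes but Cldn1, tumor 18LCO046 is intermediate, and Tjp1 is between 11.6 and 12.6 in every tumor.

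The claudin mixture changed along with the levels. By RPKM, Cldn3 made up 91.9% of the summed reads of the 4 claudins with DMSO and Cldn4 3.2%, while with TSA they made up 21.6% and 74% (means), as the sum went from 28.2 to 57.8 RPKM. With sgScr, Cldn3 was 53.5% and Cldn4 46.3% of the 3 claudins in that table, and with sgTrps1 37.5% and 62%, as the sum went from 39.9 to 124 RPKM. In Trps1+/+ organoids Cldn3 led at both days with 49.4% and 51%, followed by Cldn7 (29.7% and 26.5%) and Cldn4 (13.8% and 19.6%). In Cdh1F/F;Trps1F/F organoids Cldn4 led with 41.5% and 46.5%, ahead of Cldn3 (36.3% and 29.8%). In Cdh1+/F;Trps1F/F Cldn4 led by more, with 48.1% and 56.6%. These shares were 40.7% or more in each of the 8 Trps1F/F libraries and 12.9% to 20.7% in the 4 Trps1+/+ libraries, which did not overlap. The Cdh1+/F;Trps1F/F libraries among the 8 also differ from Trps1+/+ in Cdh1 genotype. The 4 subgroup 1 tumors held 37.6% to 53.9% Cldn4 in sums of 221 to 501 RPKM. Among the other 7, 17LCO102 of subgroup 2 held 40.2%, inside that range, in a sum of 2.49 RPKM. Tumor 18LCO046 held 31.3% in a sum of 61.2, and the other 5 held 0% to 6.29%.

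**Figure D5:**
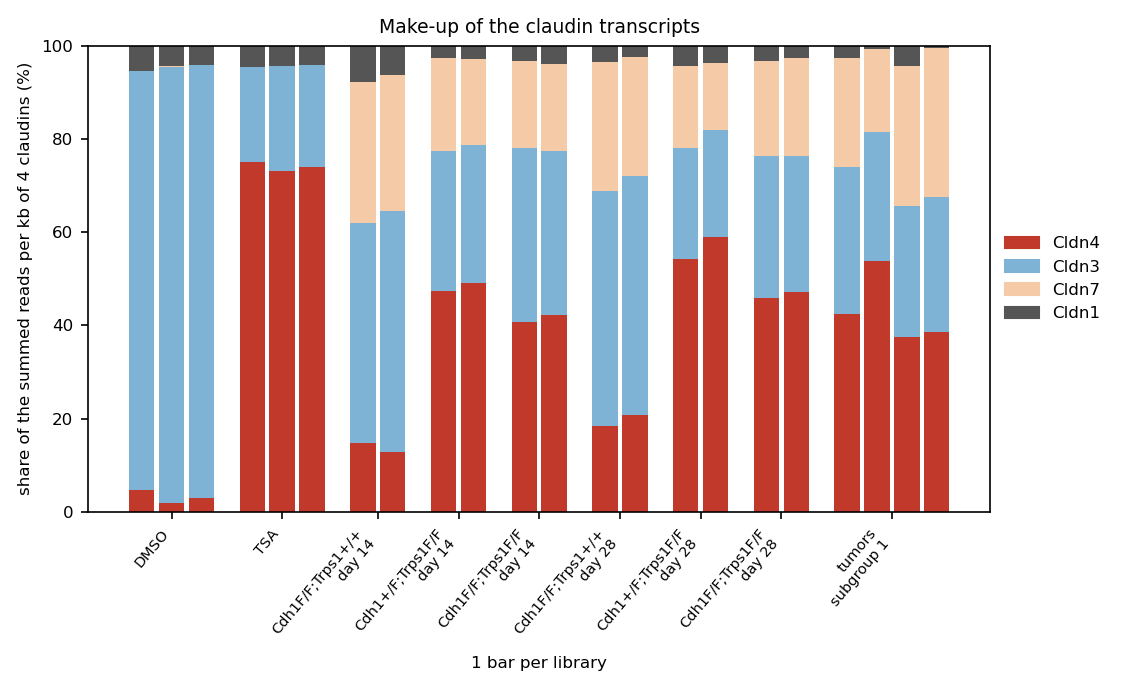
Share of each claudin (vertical axis, percent) in the reads per kilobase of exon summed over Cldn1, Cldn3, Cldn4 and Cldn7, with 1 bar per library. Cldn4 is 1.92% to 4.66% with DMSO and 73.1% to 75% with TSA, 12.9% to 20.7% in Trps1+/+ organoids, and at least 37.6% in the other organoids and the subgroup 1 tumors; the other tumors are not drawn.

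Ordered by mean level in RPKM in Trps1+/+ organoids at day 14, Cldn3 (88.1) and F11r (73.6) came first and overlapped, then Cldn7 (52.6), Cldn4 (24.3), Tjp1 (22.8), Tjp3 (16.7), Cldn1 (12.2), Marveld2 (10.6) and Ocln (7.15), of which Cldn4 and Tjp1 overlapped. In Cdh1F/F;Trps1F/F at day 14, Cldn4 came first at 205 and Cldn3 second at 180, without overlap. Ocln was last there too, at 14.3. In HC11 cells with DMSO the order was F11r (57.8), Tjp1 (35.3), Cldn3 (25.9) and Marveld2 (4.31), with the other 5 genes at 1.33 or less.

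The 9 genes did not vary as a block over the 12 organoid libraries. Over their 36 pairs, Pearson's r of the log2 values ranged from -0.08 to 0.98 with a median of 0.60, as a description of libraries that share genotypes. Cldn3 and F11r had the highest value (0.98) and Cldn3 and Cldn7 had 0.96, while the neighbours Cldn3 and Cldn4 had 0.28. Cldn4 went most closely with Ocln (0.90) and Marveld2 (0.74), and had 0.05 with Tjp3. Outside the 9 genes and the lists of related genes, those most like their mean were Vsig10 (r = 0.985), Erbb3 (0.979), Lad1 (0.976), Padi4 (0.976) and Pcdh1 (0.975), and among those most like Cldn4 were Slc43a2 (0.985) and Itpripl1 (0.985). The tumors fall into separate clusters, so no r over them is given.

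Of 54 other tight junction genes, listed with earlier results known, 42 were tested in the organoids. In Cdh1F/F;Trps1F/F, 16 rose and 7 fell at day 14 (38.1% and 16.7%, beside 14.5% and 17.9% of all genes; median 0.27). At day 28, 16 rose and 10 fell (38.1% and 23.8%, beside 19.9% and 23.4%; median 0.06). Jam2, a junctional adhesion molecule related to F11r, rose by 3.47 and 2.34, and in Cdh1+/F;Trps1F/F by 2.78 and 2.37. The polarity genes Pard6b (1.22) and Crb3 (1.18) rose at day 14. In Cdh1+/F;Trps1F/F, 8 rose and 9 fell at day 14 (19% and 21.4%, beside 18.9% and 17.4%), and 9 rose and 22 fell at day 28 (21.4% and 52.4%, beside 28.7% and 24.6%), among them Cgn (-1.19), the cytoskeletal linker cingulin. With TSA 17 of 37 rose and 18 fell (45.9% and 48.6%, near the 43.6% and 41.6% of all genes), with Marveld1 at -2.08 and Arhgef2 at -2.57. With the guide 11 of 35 rose and 16 fell (31.4% and 45.7%, beside 34.6% and 32.4%), and Marveld3, another relative of occludin, fell by 1.05. In subgroup 1 tumors 15 rose and 1 fell of 45 (33.3% and 2.22%, beside 8.91% and 6.66%; median 0.71), with Ildr1, a protein of the same cell corners as tricellulin, at 7.89 and Cldn8 at 7.64.

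Transcripts of 5 repressors known to bind E-boxes of junction genes (Snai1, Snai2, Zeb1, Zeb2 and Twist1) were also followed, several of which mesenchymal cells express. In Cdh1F/F;Trps1F/F 3 fell at day 14 (Zeb1 by 1.71, Twist1 by 1.67, Zeb2 by 1.38) and 4 fell at day 28, beside 17.9% and 23.4% of all genes. In Cdh1+/F;Trps1F/F at day 28 3 rose (Zeb2 by 2.84, Zeb1 by 2.57, Twist1 by 1.86), beside 28.7% of all genes. In subgroup 1 tumors 4 fell (Zeb1 by 2.15), beside 6.66% of all genes. With the guide, Snai1 fell by 4.15 (adjusted p = 2.01e-10) and Zeb1 by 2.38 while Snai2 rose by 0.25. With TSA, Zeb1 rose by 1.06 while Zeb2 fell by 1.96. Their part in the levels of the tight junction genes was not tested.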

How the data were processed

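Gene expression was measured by RNA-seq. TruSeq libraries were made from AllPrep RNA, per the labels' protocols, and GRCm38, TopHat and HTSeq were used, per the submitters' processing notes (versions not given in the sources used here). Each deposited table holds log2 values of normalized counts, per the file headers, scaled by the authors within that table, so tests were made within tables only. In every library 100% of the values were whole reads (within 0.01) times 1 factor, on the scale log2(normalized count + 1). A row without a symbol held at most 1.31e-05% of a library and was left out. The authors' deposited comparison tables also give p-values adjusted by them.

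These log2 values went into limma 3.58.1 (R 4.3.3, eBayes with a variance trend) for genes whose normalized count plus 1 reached 10 in the number of libraries of the smallest group (3 for TSA and all tumors, 2 for guides, organoids and subgroups). Organoids were fitted with 6 groups in 1 model, and tumors were averaged per mouse. In the subgroup model they were averaged per mouse within each subgroup. Mouse 18LCO025 thus entered that model in both subgroup 1 and subgroup 3, as if independent. Adjusted p is Benjamini-Hochberg over all kept genes, and a gene passed, rose or fell at under 0.05. Fold changes understate the change of genes with few reads. Intervals and count floors cover counting error only, since reads carry no molecular identifiers. Reads per kilobase used merged exon length and the library's reads. The scripts were tested on simulated data.

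The 9 genes, the gene lists and the marker lists were chosen with earlier results of these data known. The 9 genes, Trps1 and Cdh1 are named throughout, with up to 4 genes of each related list by smallest p, the nearest neighbours and the genes most alike by Pearson correlation. Other markers named were chosen after their values were seen. The alternatives were other scalings, a pseudocount of 4, no filter, narrower fits, replicate blocks and leaving out each library.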

Additional observations from a re-analysis of the deposited data

Results flagged for a closer look

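The difference between Cdh1F/F;Trps1F/F and Cdh1F/F;Trps1+/+ organoids itself differed between the days for 3 of the 9 genes, by limma's interaction term. It was -0.90 for Cldn3 (adjusted p = 0.00621), -0.91 for Cldn4 (adjusted p = 0.00201) and -0.58 for Tjp3 (adjusted p = 0.0181), each as the difference at day 28 minus that at day 14. Cldn4 narrowed as Trps1+/+ rose from 9.76 and 9.94 to 10.54 and 10.71, and Cldn3 as Cdh1F/F;Trps1F/F fell from 12.29 and 12.14 to 11.70 and 11.57.

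Marveld2 in tumor 18LCO003 stood at 10.52, apart from the other subgroup 1 tumors (9.97 to 10.02). The gap was 0.909 of the group's range, beside Dixon's 95% critical value of 0.829 for 4 independent values, which chance exceeds in about 1 in 20 groups. Since 2 of the 4 tumors came from mouse 18LCO025, that value does not strictly apply. This was the 1 of 36 highest and lowest values examined in the tumors (the 9 genes, over subgroup 1 tumors and over Trps1F/F mice) that passed it.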

How the results depend on the processing

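Relative to the mean of Krt8, Krt18 and Epcam, the following differences that passed on either scale changed sign. For Cdh1F/F;Trps1F/F against Trps1+/+ organoids at day 14 these were Cldn1 (-0.32), Cldn7 (-0.09), Tjp1 (-0.82), Tjp3 (-0.35) and F11r (-0.51), and at day 28 Cldn3 (-0.73), Cldn7 (-0.32), Ocln (-0.11), Marveld2 (-0.28), Tjp1 (-0.84) and F11r (-0.71). For Cdh1+/F;Trps1F/F against Trps1+/+ they were F11r at day 14 (-0.32) and Marveld2 (0.40), Tjp1 (0.51) and F11r (0.31) at day 28. For Cdh1F/F;Trps1F/F against Cdh1+/F;Trps1F/F they were Cldn4 (-0.08), Ocln (-0.33), Marveld2 (-0.22), Tjp1 (-0.23) and F11r (-0.18) at day 14, and at day 28 Cldn1 (-0.98), Cldn3 (-0.22), Cldn4 (-0.86), Cldn7 (-0.20), Ocln (-0.92), Marveld2 (-0.68), Tjp1 (-1.36), Tjp3 (-0.54) and F11r (-1.02). For day 28 against day 14 in Cdh1+/F;Trps1F/F they were Cldn1 (0.87), Cldn3 (0.06), Cldn4 (0.65), Cldn7 (0.15), Ocln (0.63), Marveld2 (0.48), Tjp3 (0.60) and F11r (0.67), and in subgroup 1 tumors Cldn1 (-3.48) and Tjp1 (-3.30). Quantile normalization turned Tjp1 with TSA to 0.02. On the relative scale, the count of the 9 genes that passed went from 8 to 4 for Cdh1F/F;Trps1F/F against Trps1+/+ at day 14, from 8 to 3 against Cdh1+/F;Trps1F/F at day 14, and from 4 to 2 between days in Trps1+/+, where a fit on those libraries alone also gave 2. The share of all genes that passed on that scale is not given, and the cause was not tested.

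With 1 library or mouse left out, the count was 8 in each case with TSA, 5 to 7 with the guide, 7 to 8 and 5 for Cdh1F/F;Trps1F/F against Trps1+/+ at days 14 and 28, and 3 to 5 and 6 to 7 for Cdh1+/F;Trps1F/F. It was 7 to 9 and 8 to 9 between the Trps1F/F genotypes, 2 to 5, 1 to 2 and 6 to 7 between days in Trps1+/+, Cdh1F/F;Trps1F/F and Cdh1+/F;Trps1F/F, 2 to 4 for the interaction, 2 to 6 in subgroup 1 and 0 in the other tumor comparisons. In subgroup 1, Cldn3 also passed with each tumor as a replicate (5.99, adjusted p = 0.0446) and with limma's voom on the recovered reads (6.13, adjusted p = 0.0289), and at day 28 the Cdh1+/F;Trps1F/F call for Tjp1 was lost on leaving out single libraries (adjusted p up to 0.261). With the replicate block, 8 genes passed with TSA, 6 with the guide (6 also with the numbers crossed) and 2 between days in Cdh1F/F;Trps1F/F, as without it. Same-numbered TSA and DMSO libraries did not deviate together (correlations -0.084 to -0.00338), and the guide libraries gave -0.194. The voom and crossed fits were chosen after seeing the data, and a planned count test was not run because the deposited values are logs. Of 1723 fold changes of the 9 genes over all alternatives, 1543 kept their direction and side of the threshold. Tjp3 with DMSO, and Tjp3, Ocln and Cldn1 with sgScr, rest on 2 to 11 reads per library, and the tumor groups on 2 or 3 mice per subgroup. Tumors were left out 1 at a time, so no fit left out all of mouse 18LCO025.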

Other observations

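Among the chromosomal neighbours of the 9 genes, Rad17, whose end lies 0.193 kb from Marveld2, stood at -0.09 in Cdh1F/F;Trps1F/F organoids at day 14 (adjusted p = 0.598), where Marveld2 rose by 0.90. At day 28 Rad17 was higher by 0.39 (limma, adjusted p = 0.0119). Gtf2h2, 3.93 kb from Ocln, stood at 0.12 at day 14 (adjusted p = 0.564) and at -0.10 with the guide (adjusted p = 0.184), and was higher by 0.43 at day 28 (adjusted p = 0.0312). Elp5, 0.337 kb from Cldn7, stood at -0.12 at day 14 (adjusted p = 0.358). Pip5k1c, 1.38 kb from Tjp3, rose with Tjp3 at day 14 (0.55, adjusted p = 0.000392) and with TSA (1.12, adjusted p = 1.15e-08). Where Tjp3 rose with the guide and in subgroup 1 tumors, Pip5k1c stood at -0.18 (limma, adjusted p = 0.0482) and -0.34 (adjusted p = 0.31).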
